A study of Mus musculus with 8 samples.

Results

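The major urinary protein (Mup) genes of mouse liver were followed as a family: every gene of the deposited table named Mup with a number, or Mup-ps for a pseudogene, that reached 1 FPKM in at least 2 of the 8 libraries. FPKM scale the fragments of a gene to the length of its transcript and to the mapped fragments of the library. The table held 55487 genes, of which 49 carried such a name and 42 met the rule, 21 with a coding name and 21 named as pseudogenes. The series profiled polyadenylated RNA from liver of male wild-type C57BL/6N mice. All mice were fed either normal chow with tap water or a western diet, here a high-fat diet together with drinking water that held 23.1 g/L fructose and 18.9 g/L glucose, and all were injected into the peritoneum every week with CCl4, a hepatotoxin, or with corn oil, its vehicle. The normal diet + oil group had 3 libraries, western diet + oil had 2, normal diet + CCl4 had 2 and western diet + CCl4 had 1. The sources used here give no age, CCl4 dose or length of treatment. Nothing in the labels says that the libraries came from separate animals, so a p-value is measured against library-to-library spread that may be technical only.

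Mup proteins are small secreted carriers of the lipocalin fold. Hepatocytes of adult male mice make them in very large amounts, and the kidney filters them into urine, where they bind and slowly release volatile pheromones. In mouse liver the pulses of growth hormone typical of males, acting through the transcription factor STAT5B, maintain much of their transcription, with further input from androgen, thyroid hormone and glucocorticoid. Mup20, also called darcin, is a male-specific pheromone in its own right. The gene cluster grew by repeated duplication, and the central copies are nearly identical, whereas the copies near its ends (Mup3, Mup4, Mup5, Mup6, Mup20 and Mup21) have diverged.

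On GRCm38, with GENCODE M21 gene models, 48 of the 49 Mup genes lay on chromosome 4 between 59956804 and 62150863, a span of 2.19 Mb. Mup-ps22 was the exception, a single-exon processed pseudogene of 243 bases at chr11:55123695-55123937 on the plus strand. All 16 central copies lay on the minus strand, and 14 of the 21 pseudogene members lay on the plus strand of the cluster, where each was annotated in the opposite orientation to the coding copies around it. Mup6 was the only coding copy on the plus strand. The coding sequence of each central copy differed from that of its nearest relative by only 1 to 4 bases (identity of at least 99.26%), while the divergent copies differed from their nearest relative by 29 to 47 bases. A stretch of 90 coding bases is given below for a run of copies, with capitals where a base differs from Mup10. It was chosen as the stretch within 1 exon in which Mup20 differs most from Mup10. It begins at coding base 123 in Mup10 and all copies are written 5′ to 3′ on the minus strand of chromosome 4, GRCm38.
Mup10, chr4:60581539-60581628: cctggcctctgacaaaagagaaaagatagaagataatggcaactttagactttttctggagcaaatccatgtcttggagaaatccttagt
Mup15, chr4:61439083-61439172: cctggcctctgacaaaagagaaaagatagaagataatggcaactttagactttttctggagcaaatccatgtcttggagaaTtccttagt
Mup7, chr4:60069751-60069840: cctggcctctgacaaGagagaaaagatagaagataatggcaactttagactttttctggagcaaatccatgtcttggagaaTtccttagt
Mup20, chr4:62053498-62053587: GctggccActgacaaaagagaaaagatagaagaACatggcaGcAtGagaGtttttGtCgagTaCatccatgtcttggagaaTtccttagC
Mup3, chr4:62086818-62086907: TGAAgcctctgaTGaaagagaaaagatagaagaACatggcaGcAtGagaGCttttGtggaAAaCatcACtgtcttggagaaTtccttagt
Within this stretch Mup15 had 1 difference from Mup10, Mup7 had 2, Mup20 had 14 and Mup3 had 20. Because of that choice the count of Mup20 is not typical of its length. Over the whole coding sequence Mup20 differed from Mup10 at 51 of 543 aligned positions and Mup3 at 95 of 555.

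This resemblance sets how far the level of a single copy can be read. Each transcript was divided into all its stretches of 100 bases, and those found in no other Mup gene were counted. In the central copies the share of such private stretches ran from 0% (Mup19 and Mup22) to 44.3% (Mup1), with a median of 24.1%. It was 61.2% in Mup20, 95.5% in Mup21, 97.8% in Mup3, 98.7% in Mup5 and 100% in Mup6. Mup20 and the pseudogene Mup-ps19 shared 322 stretches, which are 38.8% of those of Mup20 and 76.7% of those of Mup-ps19, and neither shared any with another Mup gene besides. Fragments of the central copies could therefore have been assigned to any of several of them, and values of single central copies are uncertain, as is the split between Mup20 and Mup-ps19. Sums over copies are therefore given beside the single values. Mup-ps6 and Mup-ps16 also share exons with the annotated genes Gm13773 and Gm13775 on the same strand.

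RefSeq promoters (GRCm38.p6, 250 bases before to 50 after the annotated start) were matched for 14 of the 22 Mup genes with coding names. Those of Mup10 and Mup15, central copies, and of Mup3 and Mup6, divergent copies, are printed because the copies differed in how they changed. Capitals mark TATAA on the printed strand.
Mup10, chr4:60582106-60582405, minus strand: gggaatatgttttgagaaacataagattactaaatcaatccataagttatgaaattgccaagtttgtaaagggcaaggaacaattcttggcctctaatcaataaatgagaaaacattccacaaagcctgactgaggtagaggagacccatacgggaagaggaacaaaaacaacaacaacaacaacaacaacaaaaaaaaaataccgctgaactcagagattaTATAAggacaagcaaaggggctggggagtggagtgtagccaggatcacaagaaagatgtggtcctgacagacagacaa
Mup15, chr4:61439655-61439954, minus strand: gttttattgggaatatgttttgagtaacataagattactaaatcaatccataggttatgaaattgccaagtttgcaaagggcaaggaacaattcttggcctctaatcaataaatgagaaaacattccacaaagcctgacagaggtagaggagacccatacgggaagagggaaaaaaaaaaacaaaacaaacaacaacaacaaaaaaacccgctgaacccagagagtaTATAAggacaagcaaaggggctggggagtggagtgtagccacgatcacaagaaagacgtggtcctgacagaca
Mup3, chr4:62087268-62087567, minus strand: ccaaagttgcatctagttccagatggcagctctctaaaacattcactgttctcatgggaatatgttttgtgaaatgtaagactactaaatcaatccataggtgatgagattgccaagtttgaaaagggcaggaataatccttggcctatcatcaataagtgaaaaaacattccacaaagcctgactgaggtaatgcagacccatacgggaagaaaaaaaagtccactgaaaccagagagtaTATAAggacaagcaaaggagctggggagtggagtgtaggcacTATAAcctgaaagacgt
Mup6, chr4:60003231-60003530, plus strand: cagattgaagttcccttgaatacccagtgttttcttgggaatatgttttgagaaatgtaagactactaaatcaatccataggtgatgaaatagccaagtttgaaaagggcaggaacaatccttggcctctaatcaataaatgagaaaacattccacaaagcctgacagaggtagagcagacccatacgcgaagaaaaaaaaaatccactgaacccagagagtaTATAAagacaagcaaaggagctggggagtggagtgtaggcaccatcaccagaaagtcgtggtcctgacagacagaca
TATAA, searched on both strands, was found in 13 of the 14 Mup promoters, against 25.5% of 27025 mouse promoters of the same length. The exception was Mup7, whose window aligned with that of Mup10 over only 161 bases, against 300 for Mup2. The Mup7 window ends at letters that stand ahead of TATAA in Mup15, so the bases further on were not searched. On the gene's strand the base after TATAA was A in Mup4 and Mup6. It was G in the central copies that held TATAA, in Mup21 and at the first match in Mup3. Mup10 held a further match on the opposite strand. The central copies Mup2, Mup9, Mup10, Mup11, Mup15, Mup17 and Mup19 had a run of 40 to 45 bases made of A and C alone. The longest such run was 18 bases in Mup14 and Mup18, 17 in Mup4, 10 in Mup6, 9 in the Mup7 window, 8 in Mup3 and 7 in Mup21. Only 0.333% of all promoters held a run of at least 30. The STAT5 consensus TTCNNNGAA had no match in the 14 promoters and was found in 8.47% of all of them. Matches describe the letters of these windows only.

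In normal diet + oil livers the family was among the most abundant messages. It held 16.9%, 22.1% and 32.5% of the FPKM sum in the 3 libraries, a mean of 23.8% ± 7.96 (SD, n = 3). Western diet + oil livers had 9.16% and 10.04% (9.60% ± 0.622, SD, n = 2), and normal diet + CCl4 livers had 2.80% and 4.65% (3.72% ± 1.31, SD, n = 2). The western diet + CCl4 library had 8.22%. All 5 libraries of the other groups lay below all 3 controls. The mean share was 2.48-fold lower with the western diet, 6.40-fold lower with CCl4 and 2.90-fold lower with both than in normal diet + oil. No p-value was computed for a sum over the family, because the family was chosen with results known.

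**Figure D1:**
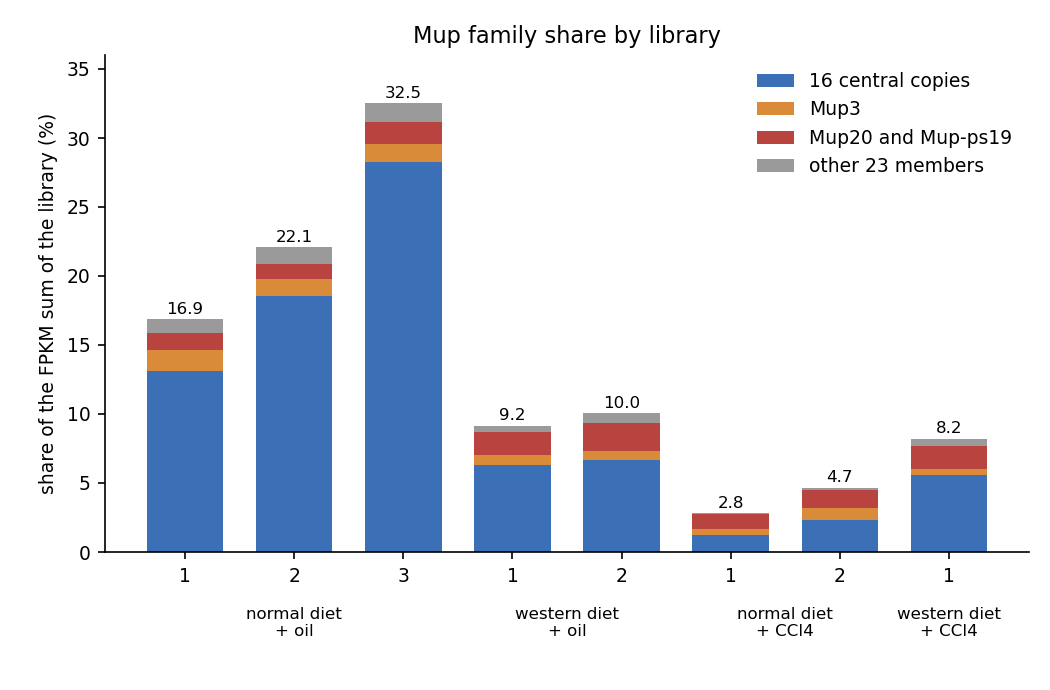
Share of the FPKM sum of each library held by the Mup family (y axis, percent), with bars for the 8 libraries by group (x axis) and colours for the 16 central copies, Mup3, the pair Mup20 and Mup-ps19, and the other 23 members. The 3 normal diet + oil libraries stand at 16.9% to 32.5% and all others at 10.04% or less, and most of the drop is in the central copies.

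The control libraries differed among themselves. Library 3 of normal diet + oil was the highest of the 3 controls in 33 of the 42 members, against 24.8% of all tested genes, and was the highest of all 8 libraries in 31. The excess was largest in the weakly expressed plus-strand pseudogenes, whose summed level was 120 and 136 FPKM in control libraries 1 and 2 and 455 in library 3. Among the single pseudogenes the ratio of library 3 to the mean of the other controls reached 14.5 in Mup-ps5. Among the coding copies it was 6.40 in Mup9, 4.17 in Mup1 and 3.06 in Mup8, while Mup3 (0.973) and Mup21 (0.521) did not share it. Without that library the control mean of the family share was 19.5%, which still exceeded every treated library.

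The fall was carried by the central copies. Their summed level was 78849, 108875 and 173000 FPKM in the control libraries, 34307 and 38192 with the western diet, 6231 and 12308 with CCl4, and 30669.9 with both. As a share of the FPKM sum that is 3.08-fold less with the western diet, 11.4-fold less with CCl4 and 3.60-fold less with both. The 5 divergent copies together went from 2.29% ± 0.234 of the FPKM sum (SD, n = 3) in controls to 1.90% ± 0.0925 (SD, n = 2) with the western diet, 1.40% ± 0.396 (SD, n = 2) with CCl4 and 1.51% with both, which is 1.2-fold, 1.64-fold and 1.51-fold less. The 14 plus-strand pseudogenes of the cluster, none of which is a source of Mup protein, went from 237 FPKM ± 189 (SD, n = 3) to 51.7 ± 14.5 (SD, n = 2) with the western diet, 3.93 ± 1.51 (SD, n = 2) with CCl4 and 29.2 with both. In that sum Mup-ps1, Mup-ps4, Mup-ps5, Mup-ps6 and Mup-ps11 met the rule for members only through the control libraries. They therefore had to be higher there.

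**Figure D2:**
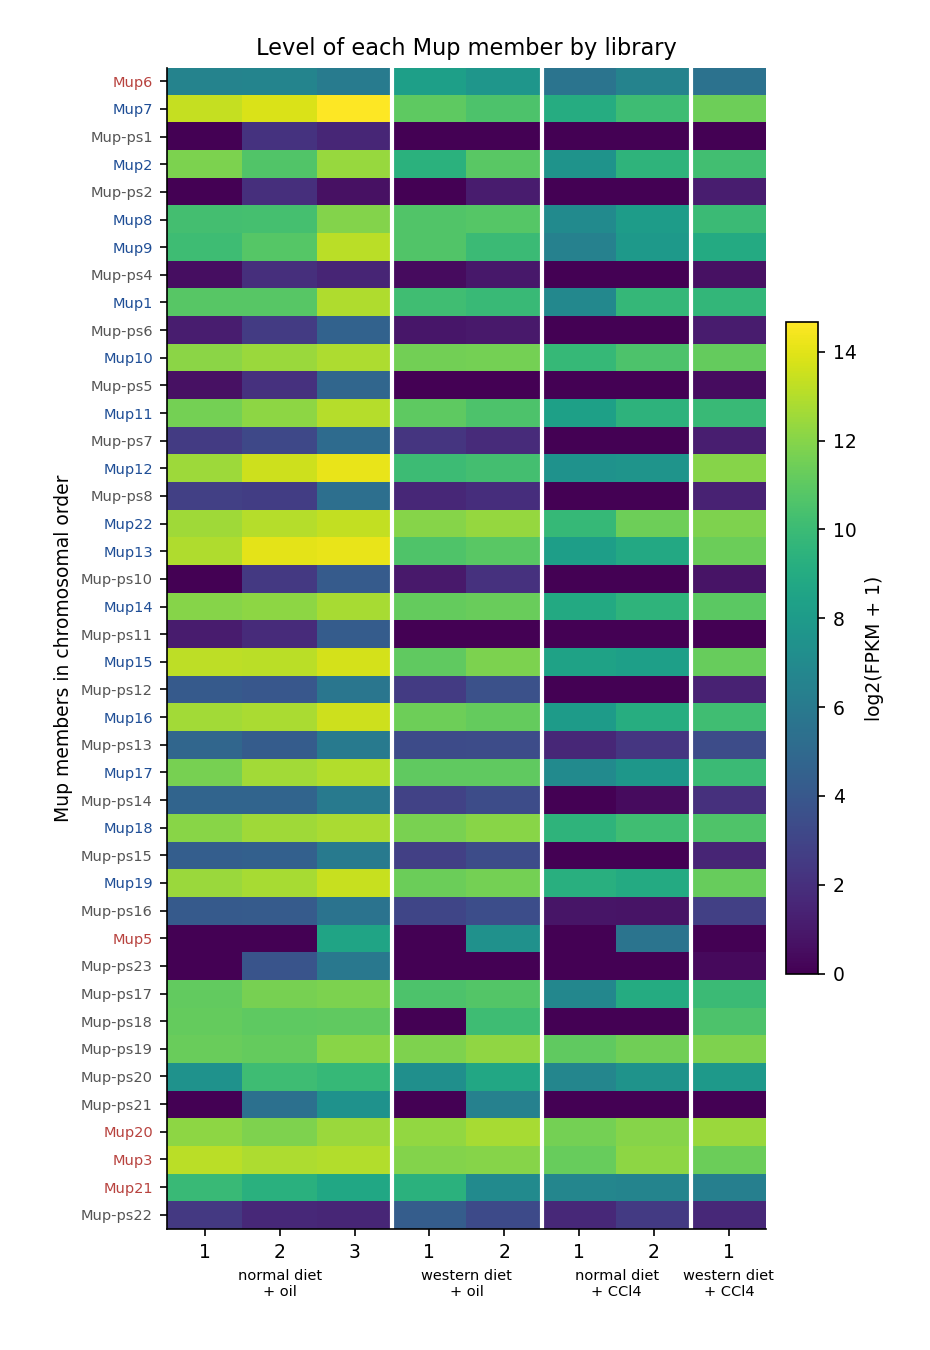
Level of each of the 42 Mup members as log2(FPKM + 1) (colour) in the 8 libraries (columns, by group), with members in chromosomal order (rows) and names in blue for central copies, red for divergent copies and grey for pseudogenes. The central copies are brightest in normal diet + oil and dimmest in normal diet + CCl4, where 14 pseudogenes are listed at 0 in both libraries, while Mup20 and Mup-ps19 keep a similar colour throughout.

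Single members were tested with limma on log2(FPKM + 1) over 11514 genes with at least 1 FPKM in at least 2 libraries, two-sided, and "rose", "fell" and "called" are used for a Benjamini-Hochberg adjusted p below 0.05 over all tested genes. Changes below are differences of group means on that scale, which understate the change of weakly expressed genes. The filter is the same as the rule for members, and 7 pseudogenes (Mup-ps1, Mup-ps4, Mup-ps5, Mup-ps6, Mup-ps11, Mup-ps21 and Mup-ps23) met it only through the control libraries, so that they had to be higher there. The 3 comparisons with normal diet + oil share its 3 libraries and are given side by side.

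CCl4 under the normal diet gave the deepest fall. Of the 42 members 19 fell, against 0.4% of all tested genes, and none rose, against 1.02%, so that 1.42% of all genes were called. At an unadjusted p below 0.05 the count was 33, against 22.8% of all tested genes (limma). The median change was -3.17, against 0.26 over all tested genes, and it was also -3.17 over the 28 members that were not listed at 0 in both CCl4 libraries. In 31 members both CCl4 libraries lay below all controls, as they did in 3.8% of all tested genes. Over the 35 members that met the filter without the control libraries the counts were 19 fallen and 27 below all controls, with a median change of -3.31. Over the same 35 members the counts below all controls were 22 with the western diet and 28 with both treatments. Among the 16 central copies 12 fell, with a median of -3.58, and among the 5 divergent copies none was called, with a median of -0.35. Without normal diet + CCl4 library 1, 7 members were called. Mup12, Mup13, Mup15, Mup16, Mup17, Mup19 and Mup-ps14 were called whichever single library was left out.

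Mup12, a central copy, changed most among the called members that were above 0 in both groups. It stood at 5848, 11869.8 and 18403 FPKM in the controls and at 173 and 191 with CCl4, a change of -5.89 (SE 0.43, adjusted p = 0.00205, limma). Mup13 went from 7821, 17158 and 18515 FPKM to 298 and 463, a change of -5.19 (SE 0.40, adjusted p = 0.00205, limma). In both, every CCl4 library lay far below every control.
Mup15 went from 9310.5, 8934 and 13334 FPKM to 342 and 305, a change of -5.00 (SE 0.29, adjusted p = 0.00148, limma). Mup17 went from 3231, 6431 and 8042 FPKM to 131 and 217, a change of -5.02 (SE 0.40, adjusted p = 0.00205, limma). Both are central copies, and the groups did not overlap in either.
Mup7, the member with the highest mean level, went from 10740.5, 14417 and 25924 FPKM to 546 and 1108, a change of -4.35 (adjusted p = 0.00525, limma). Mup16 changed by -4.42 (adjusted p = 0.00342, limma) and Mup19 by -3.79 (adjusted p = 0.00205, limma). Mup22, the member with the fifth highest mean level, had 6024, 8364 and 10259.6 FPKM in controls and 897 and 2724 with CCl4, lower without overlap, but did not pass the test (-2.36, adjusted p = 0.0545, limma). Mup1, another central copy, had 1868, 1853 and 7753 FPKM in controls and 115 and 877 with CCl4. The CCl4 libraries were lower without overlap and differed from each other by 7.65-fold, and Mup1 did not pass the test (-3.23, adjusted p = 0.118, limma).

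Of the 14 plus-strand pseudogenes of the cluster 6 fell and 8 were not called. All that fell met the filter without the control libraries. Mup-ps14 had 26.0, 25.8 and 63.7 FPKM in controls and 0 and 0.34 with CCl4 (adjusted p = 0.00205, limma). Mup-ps15 had 19.8, 21.7 and 63.2 FPKM in controls and was listed at 0 in both CCl4 libraries (adjusted p = 0.0044, limma), so no fold is given. Mup-ps12 and Mup-ps7, also listed at 0 in both, passed the test too. Mup-ps13, Mup-ps16 and the minus-strand Mup-ps17 were the other pseudogenes called. Mup-ps18, a minus-strand pseudogene with 2341, 2084 and 2152 FPKM in controls, was listed at 0 in both CCl4 libraries and in western diet + oil library 1, but at 1111 in western diet + oil library 2 and at 1536 in western diet + CCl4. It did not pass the test with CCl4 (adjusted p = 0.0683, limma).

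The western diet alone gave a smaller median change than CCl4. Of the 42 members 7 fell, against 0.599% of all tested genes, and 2 rose, against 3.81%, so that 4.41% of all genes were called. The median change was -1.36 (0.22 over all tested genes), or -1.24 over the 38 members not listed at 0 in both western diet + oil libraries. The median was -1.44 in the central copies and 0.35 in the divergent copies. Both western diet libraries lay below all controls in 25 members, against 5.18% of all tested genes, and above them in 2, against 40.7%. The count of 9 members called was 5 without control library 1 or 3, 0 without control library 2 or western diet + oil library 1, and 1 without western diet + oil library 2.
The largest falls were again in Mup12 (-3.24, SE 0.43, adjusted p = 0.0152, limma), at 1045 and 1258 FPKM, in Mup7 (-3.15, SE 0.43, adjusted p = 0.0171), at 2094 and 1529 FPKM, and in Mup13 (-2.97, SE 0.40, adjusted p = 0.0152), at 1548 and 1934 FPKM. Mup-ps14, at 6.33 and 9.72 FPKM, changed by -2.02 (adjusted p = 0.0353, limma). Mup15, at 2184 and 3553 FPKM, changed by -1.89 (adjusted p = 0.0201, limma). Mup16 (-1.70, adjusted p = 0.0492, limma) and Mup19 (-1.39, adjusted p = 0.0435) were the others called. In each of these the western diet libraries lay below every control.

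The members that rose with the western diet were both outside the central block. Mup6, the plus-strand coding copy, had 94.3, 96.6 and 66.6 FPKM in controls and 313 and 209 with the western diet (1.58, SE 0.33, adjusted p = 0.0400, limma). With CCl4 it had 48.2 and 92.8 FPKM under the normal diet and 44.8 under the western diet, and was not called in either. Mup-ps22 on chromosome 11 had 4.47, 2.27 and 1.96 FPKM in controls and 18.9 and 8.89 with the western diet (1.90, SE 0.39, adjusted p = 0.0396, limma), and 2.18, 4.61 and 2.24 FPKM in the libraries with CCl4. Neither rise passed when levels were scaled by the FPKM sum outside the Mup family (adjusted p = 0.0516 for both, limma).

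With CCl4 and the western diet combined, 4 members fell and none rose: Mup-ps15 (-3.43, adjusted p = 0.0484, limma), Mup-ps14 (-3.13, adjusted p = 0.0382), Mup16 (-2.82, adjusted p = 0.0484) and Mup15 (-2.09, adjusted p = 0.0488). Of all tested genes 0.261% fell and 0.669% rose, 0.929% in all. The median change was -1.75 (0.19 over all tested genes), or -1.66 over the 38 members not listed at 0, and the library lay below all controls in 31 members, against 13.4% of all tested genes. The median was -1.84 in the central copies and -1.60 in the divergent copies, so by median these classes lay closer together than with CCl4 alone. The divergent median is over 5 members, among them Mup5, which in this comparison was above 0 in control library 3 only. By summed share of the FPKM sum the classes still differed, with 3.60-fold less in the central and 1.51-fold less in the divergent copies. The western diet + CCl4 group is a single library, assumed in the fit to vary like the others. The count was 2 without control library 1 or 3, 0 without control library 2 or either western diet + oil library, and 8 without either normal diet + CCl4 library.

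**Figure D3:**
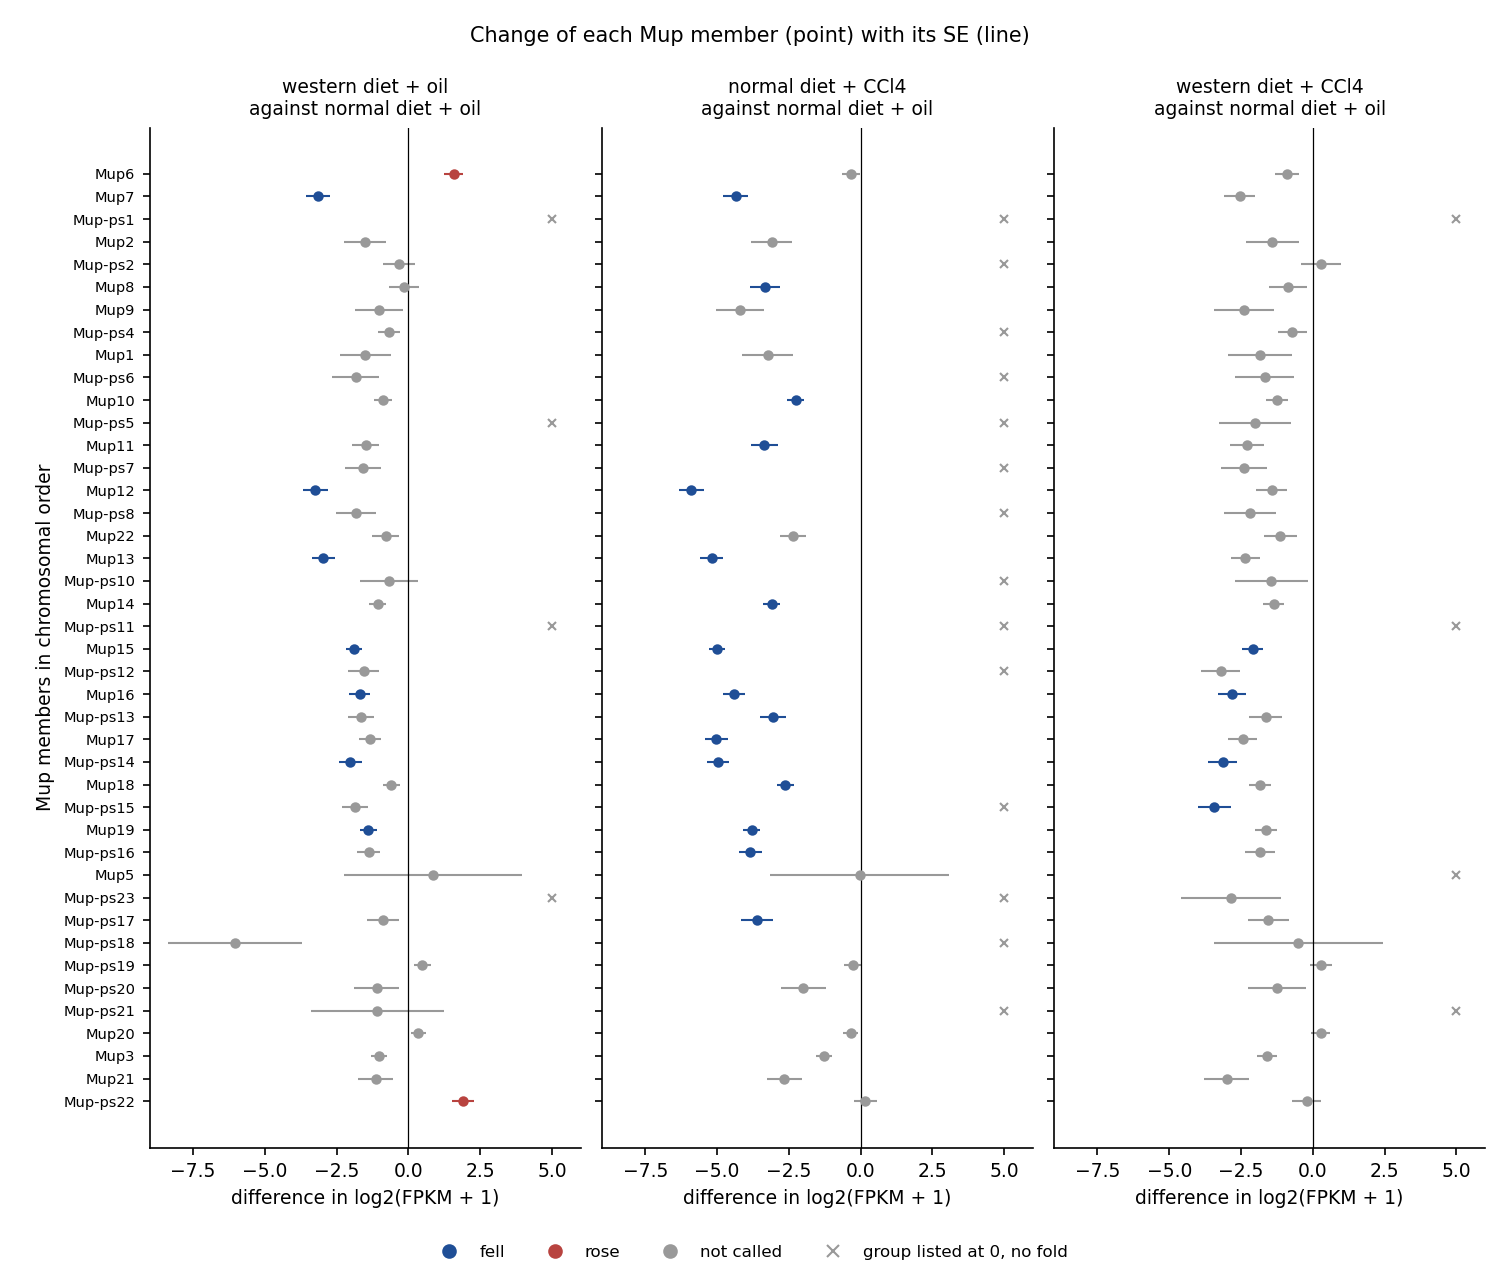
Difference of each of the 42 Mup members from normal diet + oil in log2(FPKM + 1) (x axis; point, with its SE as a line) for western diet + oil, normal diet + CCl4 and western diet + CCl4 (panels), members in chromosomal order (y axis). Blue members fell, red members rose, grey members were not called, and crosses at the right edge mark members listed at 0 in every library of the group, which have no fold. In all 7, 19 and 4 members fell in the 3 panels, of which 3 pseudogenes are crosses in the panel for CCl4.

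Mup20, one of the most abundant members, was not called in any comparison with the controls. It had 4603, 3698 and 5650.2 FPKM in controls, 5029.7 and 6759.7 with the western diet, 3114 and 4165 with CCl4 and 5546 with both. Its changes were 0.35 (SE 0.27), -0.35 (SE 0.27) and 0.28 (SE 0.34), none passed the test (adjusted p = 0.473, 0.422 and 0.749, limma), and the libraries of each group overlapped with the controls. Mup-ps19, which shares sequence with it, had 2590.1, 2389.7 and 4333 FPKM in controls, 3688 and 4775 with the western diet, 2192 and 2858 with CCl4 and 3625 with both, and was not called either. As a pair they held 1.29% ± 0.306 of the FPKM sum in controls (SD, n = 3), 1.81% ± 0.283 (SD, n = 2) with the western diet, 1.17% ± 0.201 (SD, n = 2) with CCl4 and 1.66% with both, against 23.8%, 9.60%, 3.72% and 8.22% for the whole family.
By share of the FPKM sum Mup3 lay between this pair and the summed central copies. That share was 1.91-fold less with the western diet, 2.04-fold with CCl4 and 2.81-fold with both. Its change lay within the range of single central copies with the western diet (-3.24 to -0.146) and with both (-2.82 to -0.864). With CCl4 under the normal diet it lay outside that range (-5.89 to -2.26). Mup3 had 9099, 7448 and 8051 FPKM in controls, 3962 and 4032 with the western diet, 2489.5 and 4554 with CCl4 and 2690.1 with both. Every library of the other groups was below every control, and no change passed the test (-1.03, -1.28 and -1.60, adjusted p = 0.0777, 0.0783 and 0.0962, limma).
Mup21 had 987, 644 and 425 FPKM in controls and 652 and 131 with the western diet, which overlapped. It had 105 and 98.9 FPKM with CCl4 and 80.2 with both, all below every control. The change with CCl4 under the normal diet was -2.65 (SE 0.62) and did not pass the test (adjusted p = 0.0911, limma). That change lay within the range of the central copies (-5.89 to -2.26), although Mup21 is a divergent copy. Mup21 was not called in any comparison with the controls. Mup5 was listed at 0 in 5 libraries and had 373, 169.8 and 48.6 FPKM in normal diet + oil 3, western diet + oil 2 and normal diet + CCl4 2. Mup-ps2 never exceeded 2.98 FPKM, and its 1.25 FPKM in western diet + CCl4 lay between the control values. Mup4, the sixth divergent copy, was listed at 0 in every library and is no member. The other names that did not qualify were Mup-ps24, Mup-ps26, Mup-ps28 and Mup-ps29, listed at 0 throughout, Mup-ps9, with 36.5 FPKM in control library 3 alone, and Mup-ps3, with at most 2.13 FPKM. The members nearest to the limit of 1 FPKM in 2 libraries were Mup-ps4 (second highest value 1.87), Mup-ps1 (1.95) and Mup-ps2 (1.25).

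Because the copies did not fall in proportion, the make-up of the family changed. Mup7 led the family in control libraries 1 and 3, with 10.6% and 13.0% of the family sum, and Mup13 led in library 2, with 13.2%. Mup20 held 4.55%, 2.85% and 2.84% in the controls. It led in both western diet + oil libraries (10.1% and 11.7%), in normal diet + CCl4 library 1 (21.6%) and in western diet + CCl4 (12.2%), and in normal diet + CCl4 library 2 it held 16.8%, behind Mup3 with 18.3%. Mup20, Mup-ps19 and Mup3 together made up 11.9% ± 3.74 of the family in controls (SD, n = 3), 26.3% ± 1.03 (SD, n = 2) with the western diet, 50.4% ± 5.32 (SD, n = 2) with CCl4 and 26.1% with both. Over the same groups the central copies went from 82.9% ± 4.54 (SD, n = 3) to 67.7% ± 2.02 (SD, n = 2), 46.4% ± 4.44 (SD, n = 2) and 67.5%. The summed share of Mup20, Mup-ps19 and Mup3 was lower in every control than in any other library. A share of the family can grow without any rise in level, as Mup20 and Mup3 show with CCl4 under the normal diet. Leaving out the 3 members, the rest of the family held 21.2% of the FPKM sum in controls and 7.07%, 1.88% and 6.08% in the other groups.

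**Figure D4:**
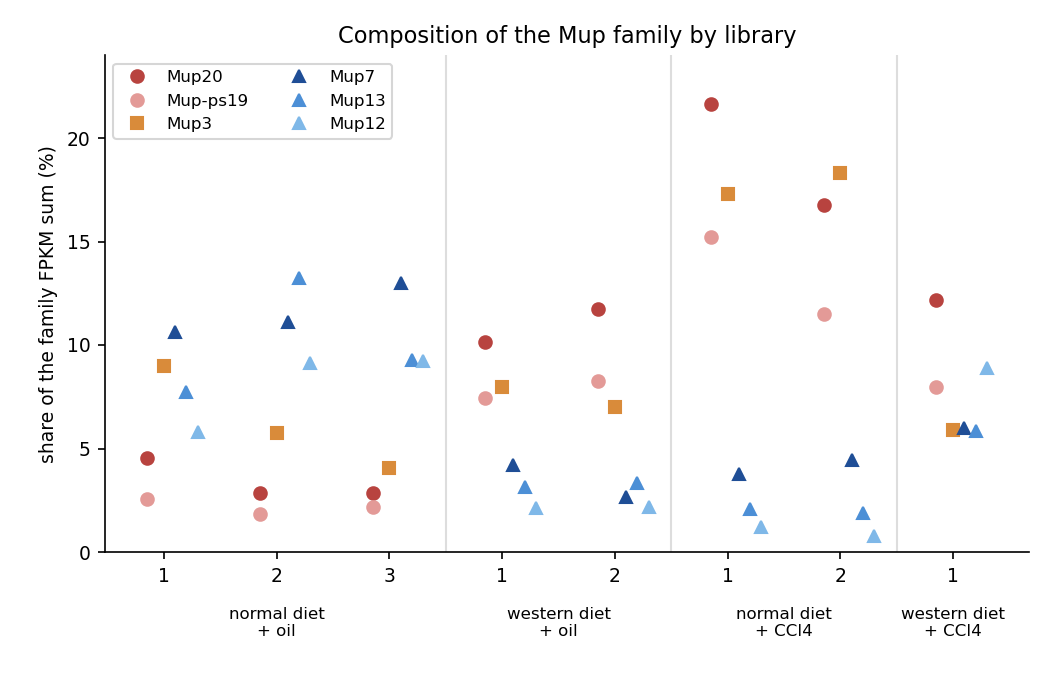
Share of the summed FPKM of the Mup family held by Mup20, Mup-ps19, Mup3, Mup7, Mup13 and Mup12 (y axis, percent) in each of the 8 libraries (x axis, by group; points are single values). Mup20 (red) goes from 2.84% to 4.55% in the controls to 21.6% and 16.8% with CCl4, while Mup7, Mup13 and Mup12 (blue triangles) go the other way, and Mup12 stands at 8.91% in western diet + CCl4.

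The level of CCl4-treated livers was also compared directly with that of western diet livers, which share no library. Mup members were lower with CCl4 than with the western diet: 8 fell and none rose, while 0.408% of all tested genes fell, 0.208% rose and 0.617% were called in all. The median difference was -1.75 (0.04 over all tested genes), or -1.90 over the 28 members not listed at 0 with CCl4. The CCl4 libraries were below both western diet libraries in 31 members, against 17.1% of all tested genes. The members called were Mup17 (-3.69, adjusted p = 0.0191, limma), Mup15 (-3.10, adjusted p = 0.0163), Mup-ps14 (-2.94, adjusted p = 0.0317), Mup16 (-2.72, adjusted p = 0.0370), Mup19 (-2.40, adjusted p = 0.0257), Mup14 (-2.02, adjusted p = 0.0418) and Mup18 (-2.02, adjusted p = 0.0494), as well as Mup-ps15, which was listed at 0 with CCl4 (adjusted p = 0.0475). The differences of Mup20 (-0.70, SE 0.30) and Mup3 (-0.25, SE 0.31) did not pass (adjusted p = 0.442 and 0.809, limma). The count was 15 without control library 3, 4 without normal diet + CCl4 library 2, 1 without control library 2, western diet + oil library 1 or normal diet + CCl4 library 1, and 0 without western diet + oil library 2.

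The single library with both treatments allowed a look at CCl4 within the western diet. The western diet + CCl4 library was above both normal diet + CCl4 libraries in 33 members, against 23.2% of all tested genes. Over the 28 members that were above 0 in at least 1 of those libraries the count was 22. Against both western diet + oil libraries it was above in 8 members, against 26.4% of all tested genes, and below in 24, against 36.8%. The interaction, which asks whether the change with CCl4 differed between the diets, was positive and passed for 3 central copies, Mup12, Mup13 and Mup15, where 0.0347% of all tested genes passed in that direction, 0.0261% in the other and 0.0608% in all. Mup12 had 4049 FPKM in western diet + CCl4, above the 1045 and 1258 of western diet + oil and the 173 and 191 of normal diet + CCl4 and below every control, an interaction of 7.71 (SE 0.72, adjusted p = 0.0286, limma). Mup13 had 2665 FPKM there (5.81, SE 0.67, adjusted p = 0.0434) and Mup15 had 2437 (4.80, SE 0.48, adjusted p = 0.0286). The difference between CCl4 and oil in Mup12 was -5.89 under the normal diet and 1.82 under the western diet, and in Mup15 it was -5.00 and -0.19. For the 16 central copies the interaction was above 0 throughout, with a median of 3.05, and for the 5 divergent copies the median was 0.27. These values rest on 1 library of the group with both treatments. The count of 3 was 7 without normal diet + CCl4 library 2, 2 without control library 1, 1 without either western diet + oil library, and 0 without control library 2 or normal diet + CCl4 library 1.

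**Figure D5:**
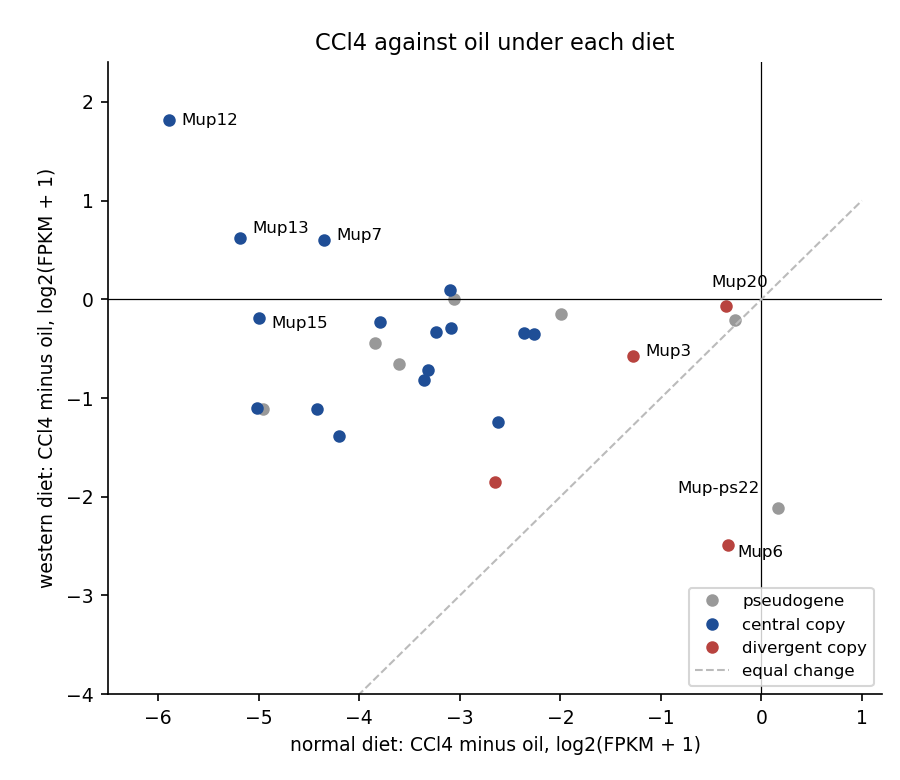
Difference between CCl4 and oil in log2(FPKM + 1) under the normal diet (x axis) and under the western diet (y axis) for the 27 Mup members that were not listed at 0 throughout a group, coloured by sequence class, with a dashed line where both differences are equal. The central copies lie left of the line, from -5.89 to -2.26 on the x axis and from -1.39 to 1.82 on the y axis, with Mup12 at the top left, while Mup20 lies near the origin.

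Genes known to share the regulation of the family or its products were set beside it. Of all tested genes 23.3% stood at an unadjusted p below 0.05 with the western diet, 22.8% with CCl4 and 15.3% with both (limma). Counts of listed genes at that threshold are to be read against these shares. Among 22 genes of hormone receptors and STAT5 signalling, 20 were tested and none rose or fell in any of the 3 comparisons with normal diet + oil at the adjusted threshold (limma), with 3, 1 and 2 at an unadjusted p below 0.05. The growth hormone receptor Ghr had 89.9, 91.8 and 83.1 FPKM in controls, 78.0 and 65.7 with the western diet, 60.3 and 85.4 with CCl4 and 54.5 with both. Stat5b, the transcription factor itself, was at 4.13 to 6.28 FPKM in all libraries. With the western diet the repressor Bcl6 and the feedback inhibitor Socs3 differed by 1.02 and 1.05 and did not pass (adjusted p = 0.0814 and 0.114, limma). RNA levels do not show the activity of these proteins.

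Of 20 male-biased liver genes outside the family, 19 were tested. With the western diet 9 fell, with CCl4 7 fell and with both 5 fell, against 0.599%, 0.4% and 0.261% of all tested genes, and none rose. The median changes were -1.45, -1.19 and -1.30. Hsd3b5, a steroid dehydrogenase of male liver, had 80.2, 100.4 and 138 FPKM in controls, 9.05 and 1.81 with the western diet, 1.81 and 1.08 with CCl4 and 1.32 with both (-4.30, -5.44 and -5.49, adjusted p = 0.0125, 0.00425 and 0.00914, limma). Slco1a1, an organic anion transporter, had 59.6, 50.1 and 67.9 FPKM in controls, 21.2 and 14.4, 4.22 and 5.65, and 7.19 in the same order, and fell in all 3. The protease inhibitor Serpina1e fell with the western diet (-2.92, adjusted p = 0.00713, limma), and Cyp2u1, a cytochrome P450, fell in all 3 comparisons.
Of 20 female-biased liver genes 11 were tested, and 3, 4 and 1 rose, against 3.81%, 1.02% and 0.669% of all tested genes, with none falling. Among the 11, Cyp17a1 and Cyp2a4 alone reached 1 FPKM in at least 2 control libraries. The others met the filter only with the help of treated libraries, so the filter itself favoured rises over falls. Cyp3a16 met it only through the normal diet + CCl4 libraries (3.13 and 7.32 FPKM). Cyp17a1 had 6.38, 6.82 and 3.36 FPKM in controls and 27.0 and 17.3 with the western diet (1.84, adjusted p = 0.0249, limma). Cyp2a4 had 4.43, 4.01 and 1.22 FPKM in controls and 37.3 and 25.4 with CCl4 (3.02, adjusted p = 0.0402, limma). Ntrk2 and Cyp2b9 rose with the western diet, and Cyp3a16, Abcd2 and Acot3 with CCl4. All of these female-biased genes remained far below Mup levels: their summed FPKM was at most 72.3 in any library.

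Other secreted liver proteins were set beside the family too. Of all tested genes 4.41% were called with the western diet and 1.42% with CCl4. The share with both treatments, given above, was lower still. Of 22 abundant ones, all tested, none rose or fell with CCl4 or with both treatments at the adjusted threshold (6 and 7 at an unadjusted p below 0.05, limma), and with the western diet 1 fell, the serine protease inhibitor Serpina3k (3689, 3118 and 4469 FPKM in controls, 1639 and 1744 with the western diet; -1.14, adjusted p = 0.0450, limma). With the western diet 7 of the 22 stood at an unadjusted p below 0.05 (limma). In a list of 22 genes these counts do not show fewer calls than over all tested genes. The sum of the 22 was between 21.3% and 23.99% of the FPKM outside the Mup family in all 8 libraries. Albumin (Alb) had 21307, 21069.6 and 18436 FPKM in controls and 38054 and 32099 with CCl4 and did not pass (0.79, adjusted p = 0.147, limma). Of 10 other lipocalins, relatives of the Mup proteins by fold, 9 were tested and none was called in the 3 comparisons (3, 0 and 4 at an unadjusted p below 0.05, limma). The acute phase lipocalin Lcn2 ranged from 8.05 to 124 FPKM in controls and stood at 1961 in western diet + CCl4, and Orm2 and Orm1 were also highest in that library, at 2855 and 4678 FPKM.

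Hepatocyte markers (Alb, Ttr, Apoa1, Cyp2e1, Serpina1b and Tat) were all detected and none of the 6 was called in the 3 comparisons (0, 3 and 2 at an unadjusted p below 0.05, limma). As a share of the FPKM outside the Mup family they summed to 8.43% to 8.86% in controls, 6.38% and 8.14% with the western diet, 9.76% and 11.4% with CCl4 and 7.25% with both. In bulk liver a smaller number of hepatocytes and less Mup RNA per hepatocyte cannot be told apart. The 6 markers did not move as 1 with CCl4: Alb changed by 0.79 and Ttr by 0.52, while Cyp2e1 changed by -0.84, Tat by -0.83 and Apoa1 by -0.37, and their median change was -0.18. Markers of other cells were counted in the same way. Of all tested genes 3.81% rose with the western diet and, as given above, a smaller share with CCl4 or with both. With the western diet 6 of 7 Kupffer cell and macrophage markers rose. Their summed level was 30.9 to 67.3 FPKM in controls and 261 and 480 with the western diet, against 161 and 60.8 with CCl4 and 169 with both. Of the other markers 3 of 5 sinusoidal endothelial and 3 of 5 erythroid ones rose with that diet, but only 1 of 7 stellate cell markers. None of these was called when levels were scaled by the FPKM sum outside the Mup family, whereas 6 Kupffer cell markers were. With CCl4 none of these markers was called, but 6 of 7 stellate cell and 4 of 5 endothelial markers were higher at an unadjusted p below 0.05 (limma). The lymphocyte and neutrophil markers summed to 2.14 to 9.08 FPKM in controls and 402.9 in western diet + CCl4, where both tested ones, the neutrophil genes S100a8 and S100a9, rose, while Cd3d and Ms4a1 were listed at 0 in all libraries. Cholangiocyte markers summed to 18.5 to 39.8 FPKM in controls and to 459 in normal diet + CCl4 library 1, against 28.6 in library 2. Spp1 alone, which other cells also make, gave 455 of the 459 FPKM, and Krt7, Krt19, Epcam and Sox9 were at 0.29 to 1.32 FPKM there. Their part in the Mup result was not tested.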

How the data were processed

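Liver RNA of 8 libraries was measured by RNA sequencing (TruSeq Stranded mRNA, per the labels' protocols). The values are FPKM per gene, computed and deposited by the authors. The submitters' processing notes name StringTie 2.1.0, HISAT2 2.2.1, the trimmer cutadapt 3.7, FastQC 0.11.9 and the build GRCm38, without the step of each. No source used here says how fragments that match several Mup copies were shared among them. FPKM keep no read counts, so the depth is unknown; FPKM sums ran from 514832 to 612747 per library.

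Groups were taken from the labels. Genes with at least 1 FPKM in at least 2 libraries were tested on log2(FPKM + 1) with limma 3.58.1 in R 4.3.3 (4 group means, trended empirical Bayes, two-sided, Benjamini-Hochberg over 11514 genes within each comparison), a script first tested on simulated data. The members and the gene lists were chosen with earlier results of these data known, so no p-value was adjusted over a list alone. Named members were those called with the largest changes in each comparison, those with the highest mean level, the divergent copies and Mup1, and those that did not fall. Gene models came from GENCODE M21 and promoters from RefSeq, GRCm38.p6. Alternatives varied the pseudocount, filter, scaling, samples and design.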

Additional observations from a re-analysis of the deposited data

Results flagged for a closer look

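The test of whether the change with CCl4 differed between the diets passed for 3 central Mup copies (limma, Benjamini-Hochberg adjusted). The interaction was 7.71 for Mup12 (adjusted p = 0.0286, with 0.00290 to 0.136 over the alternatives), 5.81 for Mup13 (adjusted p = 0.0434, with 0.0111 to 0.277) and 4.80 for Mup15 (adjusted p = 0.0286, with 0.0147 to 0.0995). All 3 stood higher in the western diet + CCl4 library than in both normal diet + CCl4 libraries. The group with both treatments is 1 library, so its spread is borrowed from the other groups and the difference has no replicate check. All 3 calls were lost when levels were scaled by median of ratios, without the filter on low values or without control library 2.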

How the results depend on the processing

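Numbers of Mup members called depended on the setting, given here in the order western diet, CCl4, both, CCl4 against western diet, and interaction (9, 19, 4, 8 and 3 as reported). Without the filter on low values they were 0, 6, 0, 0 and 0. With a pseudocount of 0.1 western diet gave 5 and both gave 0. Median-of-ratios scaling gave 0 for both, 3 for CCl4 against western diet and 0 for the interaction. Scaling by the FPKM sum outside the Mup family gave 5 for western diet, 1 for both and 5 for CCl4 against western diet. Robust empirical Bayes gave 2 for both, and a fit of only the compared groups gave 0. Leaving out 1 library in turn gave 0 to 10, 7 to 23, 0 to 8, 0 to 15 and 0 to 7. Without the western diet + CCl4 library its own comparison and the interaction could not be computed. The median of all genes, 0.22, 0.26 and 0.19 against the controls, was 0.0027, 0.0026 and 0.0078 with median-of-ratios scaling, where the Mup median was -1.62, -3.43 and -1.95.

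The labels do not say that replicate numbers pair libraries. Deviations of same-numbered libraries from their group means correlated at -0.279 to -0.014. In a group of 2 libraries these deviations mirror each other. Differently numbered pairs among libraries 1 and 2 therefore gave the same values with opposite sign. Control library 3 had no library of the same number in the groups compared. Pairing cannot be judged from these values. With the replicate block 2, 17, 0, 11 and 1 members were called.

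The family share moved to 14.3% in controls, 5.02% with western diet and 1.86% with CCl4 when FPKM were multiplied by transcript length, and to 8.39% with western diet for coding names only. Leaving out libraries gave 19.5% to 27.3% in controls, 9.16% to 10.04% with western diet and 2.80% to 4.65% with CCl4. For coding names only, Mup20 made up 12.5%, 22.8% and 14.2% of the family with western diet, CCl4 and both, and Mup3 8.55% and 21.1% with western diet and CCl4 (8.46% and 20.2% by length). Leaving out libraries gave 2.84% to 3.7%, 10.1% to 11.7% and 16.8% to 21.6% for Mup20, and 4.89% to 7.37%, 6.99% to 7.98% and 17.3% to 18.3% for Mup3, in controls, western diet and CCl4.

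Of 962 values of named members under alternatives, 757 kept their direction and side of the threshold, 175 kept only their direction and lost the call, 13 gained one, 16 changed sign and 1 became 0, the last 2 kinds all in members not called. Mup5 with CCl4 was 0.51 with a pseudocount of 0.1, 0.046 with a common FPKM sum and 2.82 with the replicate block, and with both treatments it was 2.17 with the block. Mup-ps22 with CCl4 was -0.068 with median-of-ratios scaling and -0.0037 with the block. The others came from leaving out 1 library: ranges were -2.85 to 4.57 for Mup5, -2.30 to 0.013 for Mup21 with western diet, -2.85 to 2.82 for Mup5, -0.80 to 0.13 for Mup6 and -0.24 to 0.58 for Mup-ps22 with CCl4, and -4.27 to 0 for Mup5 and -0.16 to 0.83 for Mup-ps2 with both. The cause was not tested.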
